A study of Mus musculus with 24 samples.

Results

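Osteocrin (*Ostn*), C-type natriuretic peptide (*Nppc*) and the natriuretic peptide receptor genes *Npr3*, *Npr2* and *Npr1* were followed in bulk RNASeq of cultured primary parietal OBs. They are 5 of the 55335 genes with a row in each count file, and were taken by symbol. The list was chosen by earlier fold changes of *Ostn* and its receptors with genotype and day in these same libraries, so the levels of the 5 genes are given as a description and without a test. Bone cells had been taken from the parietal bones of WT pups and of Het pups on a C57BL/6J background in the first postnatal week. Het animals carry 1 *Col1a2* allele in which cysteine replaces a glycine of the collagen triple helix, a mouse model of osteogenesis imperfecta, and WT animals carry none. Both genotypes received the same osteogenic medium with an ascorbic acid derivative. RNA was collected 8, 14 and 21 days after seeding and the labels list 4 replicates for each genotype and day, which gives 24 libraries. The study's methods describe fewer wells per genotype and day than this, and all labelled libraries were used. Cells of several pups were pooled before seeding, so wells of 1 pool are not separate animals and p-values describe the spread between wells.

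Osteocrin is a small secreted protein made by OBs and young osteocytes, and in muscle, where it is also called musclin. It binds the natriuretic peptide clearance receptor NPR-C, the product of *Npr3*, which takes up and degrades natriuretic peptides. Occupied NPR-C clears less C-type natriuretic peptide. That peptide then acts on NPR-B, the product of *Npr2*, a receptor whose inner part is a guanylyl cyclase that makes cGMP. In growing bone this pathway acts through cGMP-dependent kinases, mainly in growth plate chondrocytes, where it opposes signalling from the FGF receptor FGFR3 through MAP kinases. NPR-A, the product of *Npr1*, is the related receptor for the heart peptides encoded by *Nppa* and *Nppb*.

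Levels are given as RQ × 1000, the count of a gene per 1000 counts of the geometric mean of a set of 4 housekeeping genes (*Sdha*, *Actb*, *Actg1*, *Mrfap1*) of that library. Totals ranged from 17140202 to 59734231 counts per library. Replicate 1 was less deeply sequenced (median 23926750 counts) than replicates 2 to 4 (median 51462304), and it also stood apart in several levels below. The labels do not say what a replicate number shares, while the study describes cell preparations from different litters that differed in plating density and oxygen. Values are therefore also given without replicate 1 where it differed. The summed level of 12 OB and osteocyte markers was 17620 to 48260 on day 8 and 96470 to 187400 on days 14 and 21, which fits the cell type label in both genotypes. All 12 had a mean of at least 50 counts on the later days, but on day 8 only 10 in WT and 9 in Het cultures. On that day *Sost* had at most 18 counts in a WT and 1 in a Het library, and *Mepe* at most 10 and 4. Of the other marker lists, chondrocyte markers were also abundant (1646 to 35780), smooth muscle and pericyte markers were at 3837 to 7831, and macrophage and osteoclast markers were at 697.9 to 1313 on day 8 and 2055 to 15650 later. In bulk RNA, fewer cells of a type and less RNA per cell cannot be told apart.

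*Ostn* (ENSMUSG00000052276.8) has 1 transcript of 5 exons and 1423 exon bases on the plus strand of chromosome 16, from 27307489 to 27351212 in GRCm38. On day 8 in WT cultures its RQ × 1000 was 0.257, 2.01, 1.90 and 1.03 in replicates 1 to 4, from 3, 55, 47 and 30 counts. The day 8 Het cultures were at 0.356, 2.26, 2.35 and 1.55, from 5, 67, 64 and 48 counts. The ranges of the genotypes overlapped on day 8, although each Het library was above the WT library of the same number. In both genotypes replicate 1 was the lowest.

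On day 14 *Ostn* in WT cultures was at 0, 0.244, 0.309 and 0.178, which are 0, 6, 8 and 5 counts. Het cultures of the same day were at 2.61, 41.9, 11.3 and 8.60, from 23, 562, 310 and 191 counts. On day 21 WT cultures were at 0, 0.449, 0.529 and 0.118, from 0, 11, 10 and 3 counts. The Het libraries of day 21 were at 0.891, 10.4, 10.2 and 10.1, from 9, 269, 257 and 272 counts. Every Het library of days 14 and 21 was thus above every WT library of those days, and above the WT library of its own number on all days (12 of 12 pairs).

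**Figure D1:**
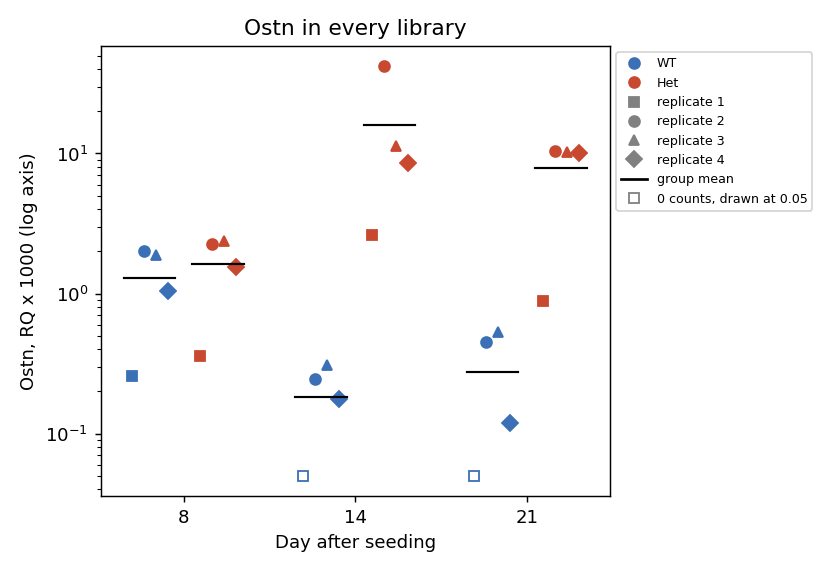
*Ostn* RQ × 1000 in each of the 24 libraries, on a log axis, by day after seeding. Colours mark genotype, symbols mark the replicate number, short lines are group means with zeros included, and the open squares are WT libraries with 0 counts. The Het libraries of days 14 and 21 lie between 0.891 and 41.9, above all WT libraries of those days (0 to 0.529), while the genotypes overlap on day 8.

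Over days 14 and 21 the mean *Ostn* level was 11.99 ± 12.7 in Het cultures and 0.228 ± 0.194 in WT cultures (SD, n = 8 each). The ratio of these means was 52.5. The edgeR fit gave a log2 fold change of 5.49 ± 0.70 (SE). The ratio of the means was 88.1 on day 14, 28.8 on day 21 and 1.25 on day 8. Het replicate 2 of day 14 held the highest level of all, and without it the day 14 ratio was 41.1. Other scalings, other housekeeping genes and the omission of single libraries or replicate numbers left the ratio for the later days between 33.8 and 75.2. In replicate 1, where WT libraries of both later days held 0 counts, Het was at least 9.51-fold higher on day 14 and at least 3.14-fold higher on day 21, against the level of 3 counts in the WT library. Of the 19845 genes in this comparison, 16.1% had an adjusted p under 0.05, 7.27% being higher and 8.87% lower in Het. Het libraries lay above all WT libraries for 0.398% of genes over both days, 2.2% on day 14 and 7.36% on day 21. The choice of *Ostn* rests on this contrast, so these shares are only given beside it.

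The time course of *Ostn* ran in opposite directions in the genotypes. In WT cultures the mean level on days 14 and 21 was 5.69-fold lower than on day 8, and in each of the 4 replicate numbers both later libraries were below the day 8 library. In WT replicate 1 this was 3 counts on day 8 and 0 later, too few to show a fall. In Het cultures the later mean was 7.35-fold higher than on day 8 (4.74-fold without Het replicate 2 of day 14), and in each of the 4 numbers both later libraries were above it. Fitted log2 changes from day 8 to the later days were −2.43 ± 0.75 (SE) in WT and 2.76 ± 0.73 in Het. The ranges of day 8 and the later days overlapped in both genotypes, because replicate 1 was low throughout. Between days 14 and 21, the WT libraries overlapped (ratio 1.501, from counts of 0 to 11). Het libraries of these days overlapped as well, with a ratio of 0.490 that became 1.05 without Het replicate 2 of day 14. Averaged over genotypes, the log2 change from day 8 to the later days was 0.17 ± 0.55, a mean of the opposite courses.

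The annotation places an antisense gene, *Gm32312*, across *Ostn*, with 184 exon bases in common. Its counts moved with those of *Ostn* from group to group. They summed to 71, 8 and 14 in WT cultures on days 8, 14 and 21, against 135, 19 and 24 for *Ostn*. In Het cultures they summed to 93, 515 and 408, against 184, 1086 and 807. The strand setting of the counting is not given in the sources used here, so reads of the antisense gene and of *Ostn* cannot be told apart where they overlap.

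Marker lists were set beside *Ostn* because muscle also makes it. Summed skeletal muscle markers were 7.57 to 12.2 in WT and 8.51 to 12.7 in Het cultures on day 14, and 7.35 to 9.42 and 7.02 to 10.3 on day 21, so their ranges overlapped on both days. The muscle regulators *Myod1* and *Myog* had at most 1 and 3 counts in any library. Endothelial markers summed to 1.25 to 5.13 over all groups. Summed macrophage and osteoclast markers were higher in Het cultures in replicates 2 to 4 of both later days, like *Ostn*. In replicate 1 of day 14 the sum was 3067 in Het and 4405 in WT. The sums were 2055 to 4405 in WT and 3067 to 7019 in Het cultures on day 14, and 5740 to 6693 and 7291 to 15650 on day 21. Het means were higher on both days for *Lyz2*, which made up most of the sums, *Ptprc*, *Adgre1*, *Csf1r*, *Cd68* and *Atp6v0d2*. They were not for *Acp5* (42.1 against 43.2 in WT on day 14, 43.6 against 50.3 on day 21) and *Ctsk* (828.5 against 839.3, and 820.8 against 957.3). Summed OB and osteocyte markers had lower ranges in Het (96470 to 128000 on day 14 and 114400 to 151000 on day 21) than in WT cultures (101700 to 182800 and 170600 to 187400). *Col1a1* made up most of these sums, with day 14 means of 99800 in Het and 137700 in WT. *Pdpn* was higher in Het (201 against 166.7 on day 14, 175.5 against 132.8 on day 21). All other markers of the list had lower Het means on both days, *Mepe* barely so on day 14 (60.4 and 60.8). The part of these cells in the level of *Ostn* was not tested.

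*Nppc* (ENSMUSG00000026241.5) encodes the peptide ligand of NPR-B. Its 3 exons, with 1042 bases, lie on the minus strand of chromosome 1, from 86666291 to 86670571. It had 6 counts in all 24 libraries together, in 5 libraries, and never more than 2 in one. None of the 5 comparisons kept it after the filter on low counts. The level that 3 counts would give was 0.0969 to 0.340 depending on the library, so *Nppc* transcripts were at or below this limit in WT and Het cultures at all times and no difference was detectable at this depth. The other natriuretic peptide genes were also scarce, with 0 to 10 counts per library for *Nppa* and 0 to 1 for *Nppb*. *Corin*, whose product activates the heart peptides, had 0 to 11. *Ostn* was therefore the only gene of a natriuretic peptide or NPR-C ligand counted here with more than 10 counts in a library.

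The receptor genes were all measured well above this limit, *Npr2* and *Npr3* with 704 to 6656 counts per library and *Npr1* with 28 to 125. They are single protein-coding genes on separate chromosomes. *Npr3* (ENSMUSG00000022206.7) spans 11839896 to 11907287 of chromosome 15 on the minus strand, with 11 exon blocks. *Npr2* (ENSMUSG00000028469.15) spans 43631935 to 43651244 of chromosome 4 on the plus strand, with 18 exon blocks. *Npr1* (ENSMUSG00000027931.12) spans 90450591 to 90465866 of chromosome 3 on the minus strand, with 22 exon blocks. Each shares exon bases with a non-coding gene on the other strand, 321 for *Npr3*, 266 for *Npr2* and 559 for *Npr1*.

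The promoters of the receptors are shown because levels of all 3 genes had lower means in Het than in WT cultures on each day. The windows hold 250 bases before and 50 after the RefSeq start on GRCm38.p6, read 5′ to 3′ on the strand of the gene, and RefSeq entries were found for 4 of the 5 genes, all but *Ostn*. Capitals mark matches to CCAAT or GGGCGG on either strand, which appear as ATTGG and CCGCCC where the match is on the other strand. TATAAA, TGACGTCA (the cAMP response element) and TGATGNAA (the core of the C/EBP-ATF element) were searched as well. The windows are chr15:11907322-11907621 for *Npr3*, chr4:43631685-43631984 for *Npr2* and chr3:90465817-90466116 for *Npr1*.
Npr3: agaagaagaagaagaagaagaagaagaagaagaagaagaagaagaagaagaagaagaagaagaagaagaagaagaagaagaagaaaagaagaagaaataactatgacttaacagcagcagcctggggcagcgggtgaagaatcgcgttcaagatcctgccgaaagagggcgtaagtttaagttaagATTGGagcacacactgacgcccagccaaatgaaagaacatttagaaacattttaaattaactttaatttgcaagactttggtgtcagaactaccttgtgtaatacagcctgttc
Npr2: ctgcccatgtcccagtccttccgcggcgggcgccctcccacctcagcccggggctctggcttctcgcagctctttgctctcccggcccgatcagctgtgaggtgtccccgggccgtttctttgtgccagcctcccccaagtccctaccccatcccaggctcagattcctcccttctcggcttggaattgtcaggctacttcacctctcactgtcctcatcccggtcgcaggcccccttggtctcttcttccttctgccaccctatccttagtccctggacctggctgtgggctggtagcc
Npr1: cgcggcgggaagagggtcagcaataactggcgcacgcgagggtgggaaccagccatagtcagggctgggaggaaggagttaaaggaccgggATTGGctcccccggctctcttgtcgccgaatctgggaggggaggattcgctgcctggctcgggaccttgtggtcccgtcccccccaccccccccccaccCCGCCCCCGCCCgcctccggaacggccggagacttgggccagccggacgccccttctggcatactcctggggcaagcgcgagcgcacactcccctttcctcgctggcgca

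The *Npr3* window opens with a long run of gaa repeats and holds 1 CCAAT match. No motif searched matches in the window of *Npr2*, and that of *Npr1* holds 1 CCAAT and 2 GGGCGG matches that overlap no other motif. Over all 32851 RefSeq promoter windows of this length, 37.4% hold CCAAT, 35.7% GGGCGG, 13.6% TATAAA, 3.97% TGATGNAA and 1.79% TGACGTCA. The motifs that the receptor windows hold are thus common ones, and no motif searched is in all 3 windows.

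*Npr3*, the clearance receptor that osteocrin binds, was at 154, 223, 183 and 185 RQ × 1000 in day 8 WT cultures and at 183, 90.6, 74.1 and 124 in day 8 Het cultures (replicates 1 to 4). On day 14 WT cultures were at 145, 145, 179 and 164, and Het cultures at 155, 52.4, 140 and 114. On day 21 WT cultures were at 140, 232, 217 and 191, and Het cultures at 173, 162, 156 and 86.9. Het was below WT in replicates 2 to 4 on every day and above WT in replicate 1 on every day, so the groups overlapped at all 3 times. The ratio of means was 0.633 on day 8 and 0.736 on days 14 and 21 (means of 129.9 ± 42.1 in Het against 176.5 ± 34.8 in WT libraries, SD, n = 8 each). The fitted log2 fold change for the later days was −0.45 ± 0.19 (SE). In replicate 1 alone the ratio was 1.19 on day 8 and 1.16 on the later days. Without replicate 1, day 8 values did not overlap (74.1 to 124 in Het and 183 to 223 in WT), and Het libraries lay below all WT libraries for 31.2% of the 18191 genes tested on that day with the same libraries.

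*Npr2*, the guanylyl cyclase receptor of C-type natriuretic peptide, was the most abundant of these genes per exon length and varied least between libraries. In replicates 1 to 4 its RQ × 1000 on day 8 was 239, 196, 177 and 199 in WT and 224, 149, 162 and 179 in Het cultures. On day 14 it was 260, 231, 214 and 237 in WT, and 247, 153, 169 and 165 in Het. On day 21 it was 228, 250, 254 and 236 in WT, and 270, 205, 202 and 158 in Het. Het was below WT in 11 of 12 pairs, the exception being replicate 1 of day 21. Over days 14 and 21 the Het mean was 196.4 ± 43.5 against a WT mean of 238.7 ± 15.3 (SD, n = 8 each), at a ratio of 0.823 with a fitted log2 fold change of −0.29 ± 0.11 (SE). The groups overlapped because Het replicate 1 was at 247 and 270. In replicates 2 to 4, Het libraries of the later days (153 to 205) lay below all WT libraries (214 to 254), as they did for 8.32% of the 19845 genes tested.

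*Npr1*, the receptor of the heart peptides, was at low levels, and its values carry more counting error. On day 8 its RQ × 1000 was 4.63, 4.24, 3.23 and 4.31 in WT and 4.91, 2.40, 2.54 and 2.81 in Het cultures. On day 14 it was 5.30, 4.07, 3.66 and 3.87 in WT, and 3.17, 2.09, 2.92 and 2.70 in Het. On day 21 it was 5.67, 4.41, 4.07 and 4.45 in WT, and 4.55, 4.01, 3.30 and 3.48 in Het. Het was below WT in 8 of 8 pairs of the later days, replicate 1 included, and the day 14 groups did not overlap. For comparison, Het libraries lay below all WT libraries on day 14 for 8.38% of genes. The ratio of means was 0.643 on day 14, 0.824 on day 21 and 0.738 over both days (Het 3.28 ± 0.77 against WT 4.44 ± 0.70, SD, n = 8 each), with a fitted log2 fold change of −0.45 ± 0.13 (SE).

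**Figure D2:**
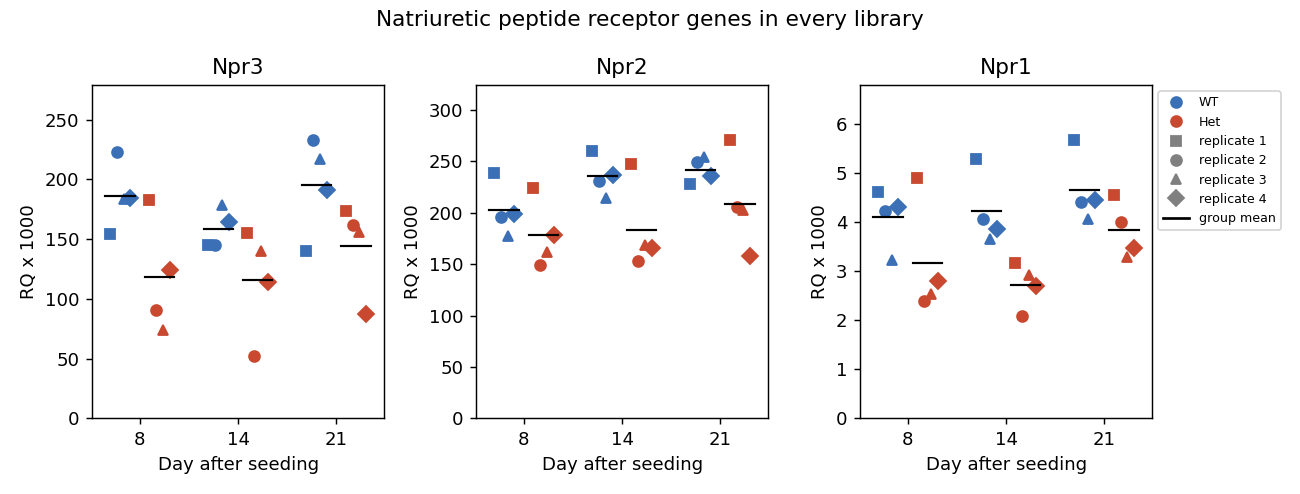
RQ × 1000 of *Npr3*, *Npr2* and *Npr1* in each library by day after seeding, with axes that start at 0. Colours mark genotype, symbols mark replicate numbers and short lines mark group means (n = 4). Het means lie below WT means in every panel and on every day, and the red squares of Het replicate 1 lie among or above the WT libraries for *Npr3* and *Npr2*.

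Unlike *Ostn*, the receptor genes changed little with time. From day 8 to the later days the ratio of means was 0.948 for *Npr3*, 1.18 for *Npr2* and 1.08 for *Npr1* in WT, and 1.10, 1.10 and 1.04 in Het cultures, and all these groups overlapped. On the scale of total counts the ratio of *Npr2* was 0.955 in WT and 0.896 in Het, and that of *Npr1* 0.876 in WT, so the direction of these small changes depends on the scale. Between days 14 and 21 the Het libraries of *Npr1* did not overlap, with a ratio of 1.41, day 21 being the higher, as was so for 8.9% of the genes tested. Fitted differences of the Het effect between the later days and day 8 were 0.22 ± 0.35 (SE, log2) for *Npr3*, −0.10 ± 0.19 for *Npr2* and −0.07 ± 0.25 for *Npr1*, against 5.18 ± 1.04 for *Ostn*.

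Levels of different genes were compared per kilobase of exon. Group means of RQ × 1000 per kilobase were 38.3 to 51.8 for *Npr2*, 12.3 to 20.8 for *Npr3* and 0.569 to 0.973 for *Npr1*. *Ostn* was at 0.128 to 0.913 per kilobase in WT cultures and at 1.15, 11.3 and 5.54 in Het cultures on days 8, 14 and 21. Het replicate 2 raised the mean of day 14. In replicates 1 to 4 of that group *Ostn* was at 1.83, 29.4, 7.95 and 6.04 per kilobase, against 16.5, 5.58, 14.9 and 12.2 for *Npr3*, so *Ostn* was above *Npr3* in replicate 2 and below it in the other 3. In WT cultures of that day the means were 0.128 and 16.8. The ratio of *Npr3* to *Npr2* per kilobase was 0.400 ± 0.090 in WT and 0.323 ± 0.073 in Het libraries (SD, n = 12 each), with ranges of 0.276 to 0.564 and 0.170 to 0.410 that overlapped. In replicate 1 it was 0.301 in WT and 0.345 in Het (n = 3), so the order of the genotypes there was the opposite.

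**Figure D3:**
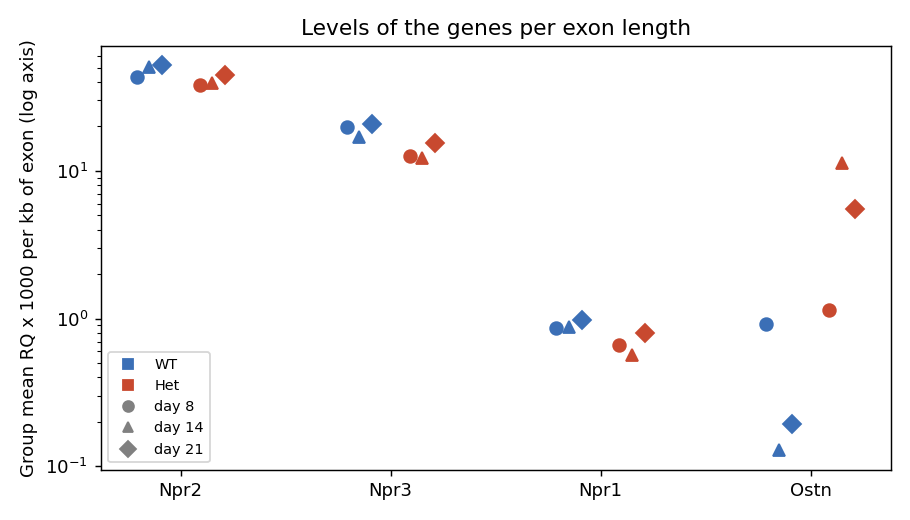
Group means of RQ × 1000 per kilobase of exon for *Npr2*, *Npr3*, *Npr1* and *Ostn*, on a log axis, with colours for genotype and symbols for day. The receptors keep their order at each day, *Npr2* at 38.3 to 51.8 above *Npr3* and *Npr1*, while *Ostn* runs from 0.128 in WT on day 14 to 11.3 in Het on day 14, a mean that replicate 2 raises.

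Ordered by group mean, *Ostn* was highest in Het cultures of day 14, followed by Het day 21, Het day 8, WT day 8, WT day 21 and WT day 14. Neighbours in this order overlapped. For *Npr3* the WT groups of days 21, 8 and 14 came first, then Het days 21, 8 and 14, and for *Npr1* the same order of genotypes held with WT days 21, 14 and 8 ahead of Het days 21, 8 and 14. *Npr2* was highest in WT on days 21 and 14, with Het day 21 next and Het day 8 last. In these orders, too, each group overlapped with the next.

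Chondrocyte markers differed between the genotypes in the same replicate numbers as *Npr3*. Their summed RQ × 1000 on days 14 and 21 was 1646 to 2903 in Het replicates 2 to 4 and 6461 to 14890 in WT replicates 2 to 4. In replicate 1 it was 26090 and 13330 in Het and 24300 and 12810 in WT cultures, where *Npr3* was also not lower in Het. On day 8 the sums were 34570, 5765, 6917 and 17490 in Het, and 35780, 23520, 21410 and 26500 in WT cultures. All 7 markers of the list had a mean of at least 50 counts in every group, though *Matn1* had as few as 15 in a Het library of day 21. In replicate 1, *Npr1* was lower in Het than in WT cultures on day 14 (3.17 and 5.30) and day 21 (4.55 and 5.67), but not on day 8. *Npr2* in that replicate was lower in Het on day 8 (224 and 239) and day 14 (247.1 and 260.5). It was higher in Het on day 21 (270 and 228). With time the chondrocyte sums went down in both genotypes, with WT medians of 25010, 11450 and 8145 on days 8, 14 and 21. Het medians were 12200, 2581 and 2295. Group means of *Npr2* were 38.3 to 51.8 per kilobase. *Col2a1* made up most of the day 8 sums. Means of *Acan*, *Col2a1*, *Sox9*, *Col9a1* and *Matn1* were lower on day 21 than on day 8 in both genotypes. *Comp* rose, from 1033 to 3591 in WT and from 558 to 1935 in Het cultures. *Col10a1* went from 37.7 to 70.1 in WT and from 27.4 to 21.9 in Het cultures. Adipocyte markers differed between the genotypes in the same replicate numbers, at far lower sums made up mostly of *Pparg*. On day 14 they summed to 18.99 to 20.63 in Het and 27.44 to 32.7 in WT replicates 2 to 4. In replicate 1 they were at 38.99 and 37.36. On day 21 these sums were 19.04 to 23.08 and 31.37 to 36.92, with 61.48 and 52.19 in replicate 1. The part of chondrocytes or adipocytes in the receptor levels was not tested. *Ostn* went the other way in replicates 2 to 4 and was also higher in Het replicate 1, where the chondrocyte sums of the genotypes were close.

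The genes nearest to *Ostn* over the 24 libraries were *Avil*, *Car6*, *Cdsn*, *B4galnt2* and *Cth*, by the root mean square difference of centred log2 levels among 14890 genes. These distances were 1.23, 1.58, 1.80, 1.86 and 1.97 log2 units, against an SD of 2.61 for *Ostn* itself. *Avil*, an actin-binding protein of the villin family, was at 32.7 RQ × 1000 in WT and 24.97 in Het cultures on day 8, and at 14.5 and 137 on the later days. *Car6*, a secreted carbonic anhydrase, was at 0.301 and 0.398 on day 8 and at 0.247 and 9.97 later. *Cdsn*, which encodes corneodesmosin, had a fall in WT (208 to 91.9) and a rise in Het cultures (173 to 355) like *Ostn*, at far higher levels and a smaller ratio. *B4galnt2* and *Cth*, an enzyme of the transsulfuration pathway, had no fall in WT cultures (0.407 to 0.728 and 4.31 to 6.11) and reached 10.01 and 18.98 in Het cultures. The 5 genes were picked for likeness to *Ostn* in these libraries, so the shared course follows from the choice. Outside the later Het libraries *Car6* was at most at 0.506 and *B4galnt2* at 1.11. They reached the mean of 50 counts only through those libraries.

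**Figure D4:**
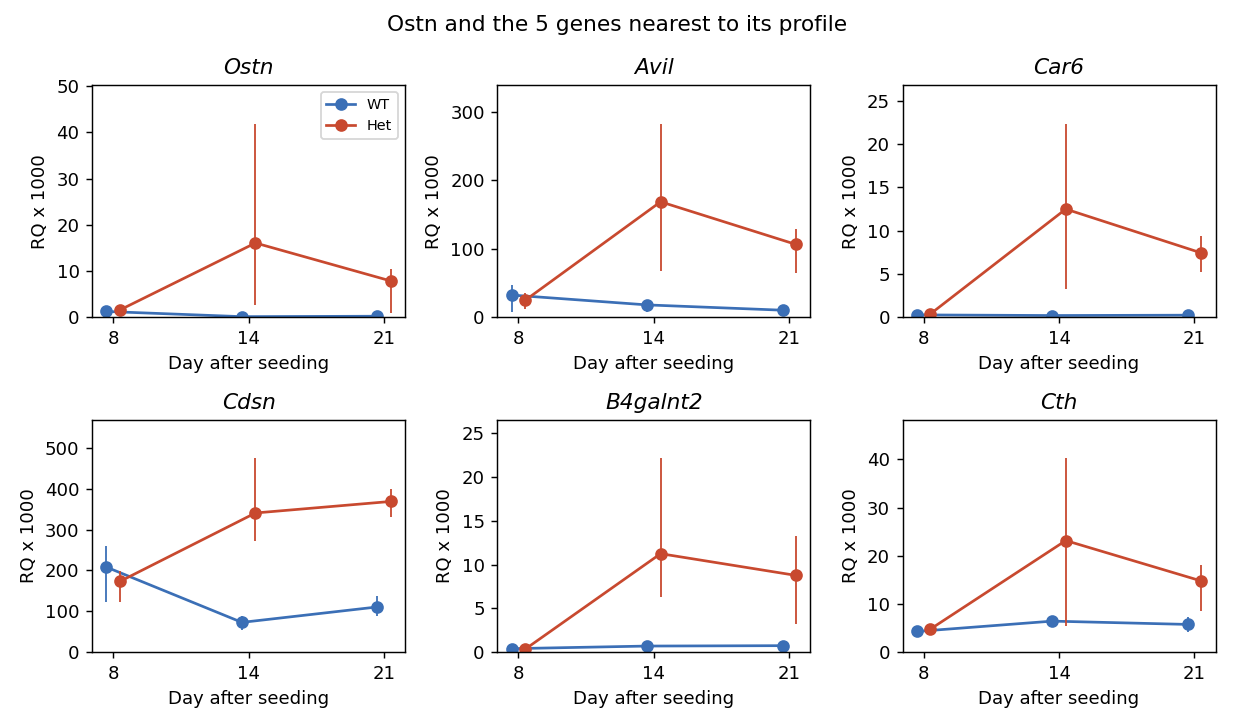
Mean RQ × 1000 of *Ostn* and the 5 genes with the nearest profile, by day after seeding and genotype, with vertical lines from the lowest to the highest of the 4 libraries. In all 6 panels the Het means of days 14 and 21 lie above the WT means and the day 8 means are close, as for *Avil* at 137 and 14.5 on the later days. The 5 genes were picked for this likeness in the same libraries.

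The nearest genes were different for the receptors. *Wasf3* (0.190 log2 units), *BC067074* (0.223) and *Smoc1* (0.232) were nearest to *Npr3*, whose own SD was 0.519. *Nlrx1* (0.072), *Ltbp3* (0.089), a binding protein of latent TGF-β, and *Slc41a1* (0.093) were nearest to *Npr2* (SD 0.267). *Lacc1* (0.153), *Fgf2* (0.184) and *Akap17b* (0.188) were nearest to *Npr1* (SD 0.375). For *Nppc*, at 0 to 2 counts, the genes nearest by this measure (*Pqlc2*, *Supt3* and *Slc25a43*) carry little information, since single counts set its profile.

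Genes of the pathway around these receptors were also compared between the genotypes. The 50 genes were of natriuretic peptide processing, cGMP synthesis, cGMP breakdown and export, cGMP-dependent kinases and their substrates, and FGF receptor and MAPK signalling. The lists were drawn up with earlier results of these data known. The shares called therefore describe these genes and cannot decide whether the pathway differed. Adjusted p-values are from edgeR's quasi-likelihood test over all genes. Over days 14 and 21, 14 of the 45 genes tested were called, 4 higher and 10 lower in Het (31.1%, against 16.1% of all genes). Their median log2 fold change was −0.11, against −0.05 for all genes. The split depended on the scale, with 7 higher and 8 lower under TMM, 8 and 7 with DESeq2's size factors and 9 and 5 with total counts. Replicate 1 weighed on the count, which was 29 without it, beside 7573 of all 19268 genes. Without replicates 2, 3 and 4 it was 1, 1 and 0, beside 330, 260 and 139 of all genes. With the replicate number as a block, 18 pathway genes were called, beside 4677 of all 19845 genes.

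Of the cGMP-dependent kinase genes, *Prkg1* passed the test and *Prkg2* did not. *Prkg1* fell by 0.76 ± 0.17 (log2, SE, adjusted p = 0.00928). On day 14 *Prkg1* stood at 41.6 ± 18.5 RQ × 1000 in Het and 75.3 ± 8.86 in WT cultures, and on day 21 at 43.0 ± 11.3 and 67.4 ± 4.25 (SD, n = 4). *Mrvi1*, which encodes a substrate of this kinase, fell by 1.14 ± 0.27 (adjusted p = 0.0111). *Prkg2*, the kinase that acts in growth plate chondrocytes, differed by −0.71 ± 0.37 and did not pass the test (adjusted p = 0.200). It passed with the replicate block (−0.84 ± 0.13, adjusted p = 0.00103). *Prkg2* levels were 25.6 ± 18.8 in Het and 40.2 ± 17.97 in WT cultures on day 14 and 28.5 ± 23.9 and 46.8 ± 21.2 on day 21.

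The cyclic nucleotide phosphodiesterase genes *Pde1a* (−0.69 ± 0.19, adjusted p = 0.0244) and *Pde3a* (−0.43 ± 0.14, adjusted p = 0.0404) fell, while the cyclic nucleotide exporter gene *Abcc4* rose (0.29 ± 0.07, adjusted p = 0.0152). *Furin*, a proprotein convertase, fell by 0.23 ± 0.05 (adjusted p = 0.0105). Among FGF receptor and MAPK genes, *Fgfr3* fell by 0.67 ± 0.22 (adjusted p = 0.0495) and *Fgf2* by 0.38 ± 0.12 (adjusted p = 0.0394), and *Mapk14*, the p38α kinase gene, rose by 0.16 ± 0.04 (adjusted p = 0.0176). The other 2 genes that rose, *Nos2* and *Gucy2c*, had means of 24.7 and 16.1 counts and were named after their values were seen. With replicate 2, 3 or 4 left out, none of these genes was called, and without Het replicate 2 of day 14 *Fgfr3* (adjusted p = 0.0825) and *Pde3a* (adjusted p = 0.0606) lost their calls. With total counts *Fgfr3*, *Pde3a*, *Fgf2* and *Furin* also missed the threshold (adjusted p = 0.0572, 0.102, 0.0897 and 0.115). The remaining calls were falls of *Ide* (−0.29 ± 0.04, adjusted p = 0.000746), *Pde11a* (−2.40 ± 0.55, adjusted p = 0.00943, a mean of 22.6 counts) and *Kcnma1* (−0.29 ± 0.09, adjusted p = 0.0450). They too were named after their values were seen. The 1 pathway gene still called without replicate 2, and the 1 without replicate 3, fell in Het. Chondrocyte markers, given above, moved in the same libraries as *Fgfr3* and *Prkg2*, a part that was not tested.

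**Figure D5:**
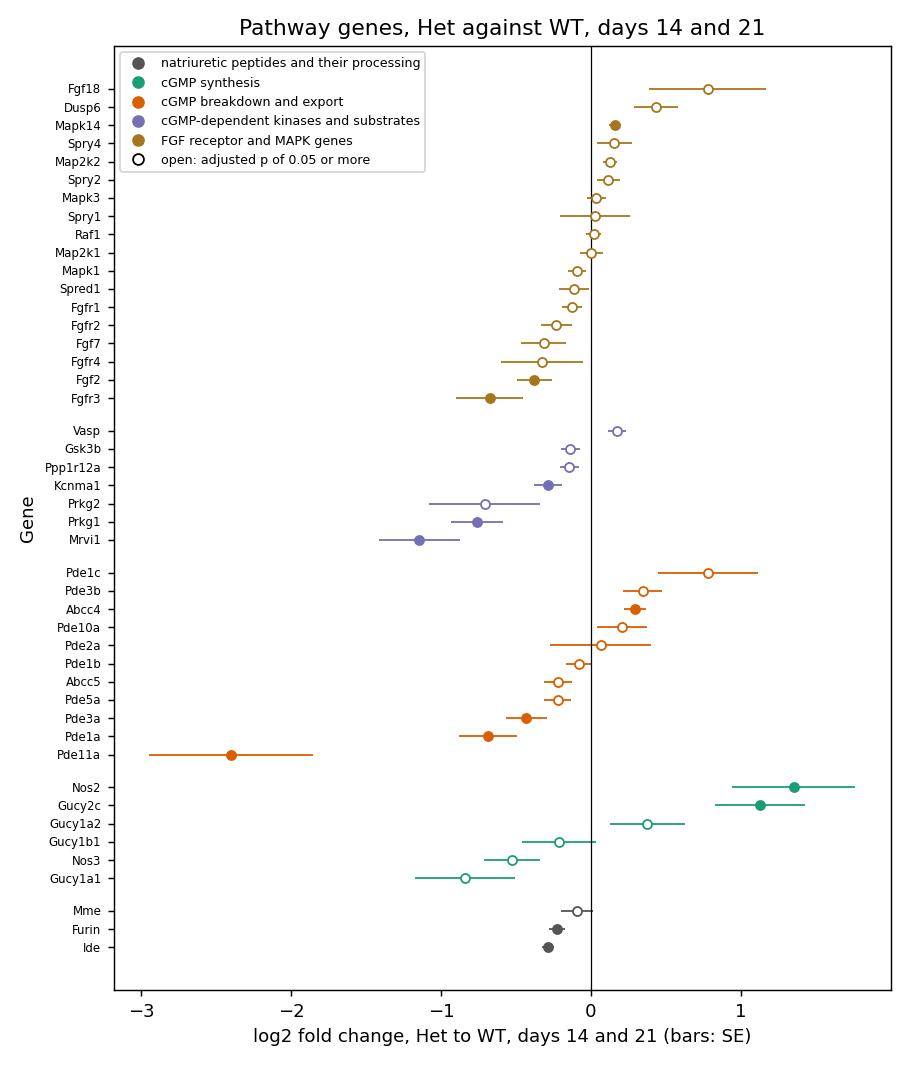
Fitted log2 fold changes of Het to WT over days 14 and 21 for the 45 pathway genes tested, with SE bars, in 5 lists by colour. Filled points are the 14 genes with an adjusted p under 0.05, of which 10 lie below 0 and 4 above it, while *Prkg2* at −0.71 is open.

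On day 8 edgeR called 0 of the 43 pathway genes tested between Het and WT, and 0 of all 18191 genes (0.0%), with 12 and 1815 at an unadjusted p under 0.05. DESeq2 called 4 pathway genes and 431 genes in all. The fit with the replicate block called 4 and 282, and without replicate 1 edgeR called 17 and 3429. *Kcnma1*, *Fgfr4* and *Ide* were lower in Het in both the DESeq2 and the blocked fit and were named after their values were seen. The Het effect differed between the later days and day 8 for 1 of 46 genes tested (0.177% of all genes). *Kcnma1*, a potassium channel gene whose channel the cGMP kinase regulates, had a difference of 1.21 ± 0.24 (log2, adjusted p = 0.0376). It was at 2.79 ± 0.75 in Het and 7.60 ± 2.16 in WT cultures on day 8, and at 39.0 ± 4.4 and 50.1 ± 3.7 on day 14 (RQ × 1000, SD, n = 4). This call was lost under TMM (adjusted p = 0.0660) and with DESeq2's size factors (adjusted p = 0.0580), and with replicate 2, 3 or 4 left out.

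With time in culture, 29 of 46 pathway genes changed between day 8 and the later days, 21 higher and 8 lower (63%, against 58.5% of all genes, of which 40.9% were higher and 17.6% lower). *Gucy1a1*, a subunit of the nitric oxide receptor that makes cGMP, rose by 4.89 ± 0.39 (log2, adjusted p = 5.4e-10) and *Kcnma1* by 3.13 ± 0.13 (adjusted p = 5.7e-14). *Pde1a* rose by 2.11 ± 0.17 (adjusted p = 8.2e-10), and *Spry1*, *Pde1b* and *Dusp6* by 1.35 to 1.68. The genes that fell included *Fgfr4* (−1.505 ± 0.21, adjusted p = 1.9e-06), *Prkg2* (−1.13 ± 0.33, adjusted p = 0.00587) and *Pde10a*, *Pde3a*, *Prkg1* and *Abcc5*, by 0.26 to 0.67. Chondrocyte marker sums, given above, also went down over these days, though *Comp* of that list rose. The part of chondrocytes in these falls was not tested. The call of *Prkg2* was lost without replicate 4 (adjusted p = 0.0598), and that of *Prkg1* without replicate 2, 3 or 4. These directions are relative to the housekeeping scale, on which the median of all genes was 0.15. With total counts that median was −0.14 and the split was 15 higher and 21 lower, and under TMM it was 20 and 17. Between days 14 and 21, 11 of 45 pathway genes changed, 10 higher and 1 lower (24.4%, against 19.2% of all genes, with 13.3% higher and 5.93% lower). *Mrvi1*, *Fgf7*, *Dusp6*, *Pde1a*, *Pde1b* and *Mapk3* rose by 0.30 to 0.80, and *Fgfr4* fell by 1.38 ± 0.28 (adjusted p = 0.00254). Under TMM the split was 6 higher and 4 lower. *Mrvi1* and *Pde1a* lost their calls under TMM (adjusted p = 0.0593 and 0.0512) and without replicate 2, 3 or 4.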

How the data were processed

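The files deposited by the authors hold untransformed read counts for each gene, made from polyadenylated RNA in TruSeq libraries without molecular identifiers. Per the labels, the submitters' processing notes name cutadapt 2.5, STAR 2.73a, Subread featureCounts 1.6.4 and mm10, and the handling of strand and of multiply matching reads is not given in the sources used here. Exon lengths came from the deposited files, coordinates from GENCODE M21 (GRCm38), where 54587 of 55335 identifiers matched with their version.

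RQ was the count over the geometric mean of 4 housekeeping genes. Counts were tested with edgeR 4.0.16 (R 4.3.3, glmQLFit, glmQLFTest, filterByExpr, this scale, Benjamini-Hochberg adjusted p under 0.05 over all genes) in 5 comparisons, with day or genotype as a covariate when days 14 and 21 were pooled. DESeq2 1.42.0 was an alternative. The edgeR step was checked on simulated counts. *Irag1* was listed but is not a symbol here (its older symbol *Mrvi1* is).

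The members and lists were chosen with earlier results of these data known. Named pathway genes were, per comparison, up to 6 called in each direction with a mean of at least 50.0 counts, plus *Fgfr3*, *Prkg2*, *Furin* and *Corin*. Genes near a member were ranked on log2 of counts plus 0.5 over the housekeeping mean. Libraries of 1 group differed beyond counting noise in all 36 pairs. Same-numbered WT and Het libraries of a day had correlated deviations from the group means in all 12 pairs (0.193 to 0.713, median 0.453, against −0.124 for different numbers), and in 9 pairs among replicates 2 to 4 by 0.016 to 0.344. Deviations within a group sum to 0, so values for different numbers tend to the opposite sign of those for the same number. Libraries of the same number were set side by side in the descriptions, from the data and not from the labels. The main fits held no term for the replicate number, which entered only the alternative fit with the replicate block.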

Additional observations from a re-analysis of the deposited data

Results flagged for a closer look

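In Het cultures of day 21, *Ostn* in replicate 1 (0.891 RQ × 1000) lay far below the other 3 libraries, which were close together. *Npr2* in Het replicate 1 of day 14 (247.1 RQ × 1000) and *Npr1* in Het replicate 1 of day 8 (4.91 RQ × 1000) lay far above the other libraries of their groups. Such gaps occur by chance in about 1 of 20 groups, and all of these came from replicate 1. The reason for this was not tested. *Ostn* on days 14 and 21 relative to day 8 was at a ratio of 0.176 in WT and 7.35 in Het cultures (4.74 without Het replicate 2 of day 14). Every replicate number moved down in WT and up in Het, though WT replicate 1 only from 3 counts to 0. This difference was not tested because the gene was chosen for its pattern. The Het effect on *Kcnma1* differed between the later days and day 8 by 1.21 on the log2 scale (edgeR, adjusted p = 0.0376, not past the threshold under TMM or DESeq2's size factors).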

How the results depend on the processing

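Of 459 ratios of mean levels recomputed for *Ostn*, *Npr3*, *Npr2* and *Npr1*, 446 moved by less than the spread between replicates. Those that moved were, in replicate 1 alone, the Het to WT ratios of *Npr3* on the later days (1.155) and day 8 (1.186), of *Npr2* on the later days (1.060) and of *Npr1* on day 8 (1.060), the ratio of day 21 to day 14 of *Npr2* in WT (0.874) and of the later days to day 8 of *Npr1* in Het (0.787), besides 4 single-day ratios of *Npr3* and *Npr2* (0.949 to 1.24). With total counts, the ratios of the later days to day 8 of *Npr2* (0.955 in WT, 0.896 in Het) and *Npr1* (0.876 in WT) moved. *Ostn* has no ratio in replicate 1 on the later days, where WT counts were 0. The spread used was the SD of log2 levels within groups, 1.48 for *Ostn*, 0.449 for *Npr3*, 0.228 for *Npr2* and 0.286 for *Npr1*. For *Ostn* only large moves could exceed it. Its Het ratio of day 21 to day 14 counts as unmoved, though it went from 0.490 to 1.05 without Het replicate 2 of day 14.

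Leaving out 1 replicate number, the counts of pathway genes called ranged over 0 to 29 for Het against WT on the later days, 0 to 17 on day 8, 0 to 6 for the difference of these effects, 23 to 38 for the later days against day 8 and 4 to 14 for day 21 against day 14. Over all genes, the counts of the same 5 comparisons ranged over 139 to 7573, 0 to 3429, 0 to 929, 9499 to 13761 and 1696 to 5568. On day 8 DESeq2 called 4 pathway genes and the replicate block 4, where edgeR called 0. For the difference, TMM and DESeq2's size factors gave 0 in place of 1. The block gave 18, 1, 32 and 13 in the other comparisons. Under TMM, DESeq2's size factors and total counts *Furin* fell from day 8 to the later days (−0.15, −0.11 and −0.27, log2) where the housekeeping scale gave 0.03, since these scales set the median of all genes lower. Of 420 values of single named pathway genes, 346 kept their direction and side of the threshold, 61 lost and 10 gained a call and 3 reversed. Of the calls lost, the cause was not tested. Depth limits *Nppc*, and *Ostn* in WT replicate 1. The alternatives without Het replicate 2 of day 14 were chosen after seeing the data.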
